A study of Bos taurus with 18 samples.

Results

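Aggrecan, encoded by ACAN, is the large chondroitin sulfate proteoglycan of cartilage, and its transcript was used to sort clones of bovine mesenchymal stem cells (MSCs) into an aggrecan-high and an aggrecan-low group before any chondrogenic induction. The groups were selected on ACAN itself: of the 17 clones, the 5 with the most and the 5 with the fewest ACAN reads as a share of the reads on genes (CPM, reads per 1000000 reads on genes) were compared, so 10 of the 18 samples of the series entered the comparison and 7 clones lay between. All samples were bone marrow derived mesenchymal stem cells of Bos taurus from 1 donor animal, grown on tissue culture plastic in DMEM with FBS and antibiotics and taken for RNA at passage 1. A clone is a culture grown from a single cell, each clone was sequenced once, and the 18th sample was the heterogeneous parental population. Neither group carried an engineered allele or had received TGFβ or another inducer, so a clone's ACAN level stands for its state in expansion culture and not for a response. The 5 clones of a group are separate cultures of 1 donor, and the tests below therefore measure the spread between clones of that animal only.

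In cartilage, chondrocytes fill their matrix with fibrils of type II collagen, with types IX and XI alongside it, and with aggrecan that is bound to hyaluronan through link protein and swollen by its chondroitin sulfate chains. The transcription factor SOX9, with its partners SOX5 and SOX6, drives COL2A1 and ACAN, and TGFβ and BMP signals bring it on when marrow stromal cells are turned towards cartilage. In monolayer on plastic, stromal cells instead spread, build actin stress fibres and make a type I collagen matrix.

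ACAN in the aggrecan-high clones was 3032 CPM in N, 1437 in O, 1348 in Q, 1253 in C and 762 in P. In the aggrecan-low clones it was 82.6 CPM in F, 45.4 in M, 42.2 in I, 34.3 in E and 19.5 in H. The group means were 1566 ± 860 and 44.8 ± 23.4 CPM (SD, n = 5 each), which describes the choice and is no result. The upper limit of the choice fell in a wide gap, with P at 762 CPM inside it and D at 294 outside. The lower limit did not: F at 82.6 CPM (95% Poisson interval 78.1 to 87.4) was taken and B at 82.8 (78.4 to 87.4) was left out, 2 values that counting error cannot separate. The heterogeneous population had 53.0 CPM, within the range of the low group. In a bulk culture, fewer ACAN-expressing cells and less ACAN per cell cannot be told apart.

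The libraries held 13772875 to 17319929 reads on genes in the high group and 13803983 to 18458157 in the low group, and 3 reads corresponded to 0.162 to 0.218 CPM. Libraries C and O were nearly alike, with a Pearson r of 0.9954 over 11477 genes against 0.9861 for the next closest pair within either group (F and E). Their counts differed by more than sampling noise, with a chi-square of 4.91 per gene against 22.4 for F and E. That comparison covers counting noise only, and separate clones and sister cultures of 1 clone cannot be told apart from these values. C and O were kept as 2 samples because the labels name them so. Calls and counts that change with C and O summed as 1 are given beside the results. Over genes, N, P and Q resembled one another (r 0.960 to 0.977) more than they resembled C or O (0.916 to 0.948), and library N had 26.8% of its reads outside genes against 19.2% to 22.4% in the other 9 libraries. The high group was thus more varied than the low group, with a median r between its clones of 0.945 against 0.967.

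The stromal identity of both groups was as labelled, and other marrow cells were scarce. The 8 mesenchymal stromal markers (THY1, NT5E, ENG, CD44 and others) summed to 4088 to 5993 CPM in the high clones and 2833 to 5155 in the low clones, and none was at 0. The 10 macrophage and leukocyte markers summed to 4.04 to 8.99 and 2.98 to 5.32 CPM, against 162 CPM in the heterogeneous population. The 6 endothelial markers summed to 5.17 to 9.66 and 3.46 to 4.51 CPM, with CDH5 at 0 in every clone, and the 5 erythroid markers to at most 0.173 CPM, with 3 of them at 0 in every clone. Of the 19 gene lists used below, those for macrophages and leukocytes (4 members tested, median log2 difference 0.23), endothelium (4, median 0.90) and erythroid cells (1, EPOR, −0.85) had 0 members past the threshold in edgeR, with 0, 1 and 1 members at an unadjusted p under 0.05, and DESeq2 called 0, 0 and 1.

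Between the groups, 245 of 10927 tested genes were higher in the aggrecan-high clones (2.24%) and 243 were lower (2.22%) at an adjusted p under 0.05 in edgeR's quasi-likelihood test. That is 4.47% in all, the share to set beside every list count below. An unadjusted p under 0.05 was found for 2544 genes (23.3%). ACAN was left out of the test and of the adjustment. Among the genes called higher, the median difference was 2.39-fold and 72 exceeded 4-fold, and among those called lower it was 2.12-fold and 39 exceeded 4-fold. In 495 tested genes (4.53%) every high clone lay above every low clone, and in 217 (1.99%) every high clone lay below. Of the genes called higher 215 were of that kind, and of those called lower 166. Overlap was judged on CPM by library totals, whereas the calls used TMM scaling, so the 495 and 217 are not on the scale of the calls. Of the tested genes, 16 reached the filter on low counts (10 reads at the median library size, in 5 libraries) through the high group alone. In these no low clone reached that level, and 14 of them were called higher. These calls support nothing, since such a gene had to differ. Of the list members, COL9A2 was the 1 such gene, and GATA4, named by its slope, was another. The count leaves out genes in which some but not all low clones reached that level (0.655 CPM). ZBTB46 was above it in H alone of the low clones, and G0S2 and WSCD2 in some of them. Calls of such genes may rest on the filter too. The median log2 difference over all tested genes was 0.04 with TMM scaling and 0.16 with library totals alone. The share of called genes that were higher moved from 50.2% (245 against 243) to 65.1% (310 against 166) between the scalings.

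The number of calls depended on the clones. With C and O summed as 1, 174 genes were higher and 130 lower, of which 156 and 127 were among the genes called with C and O apart. With 6 clones against 6 the calls were 95 and 76, and with 8 against 8 they were 0 and 0 in edgeR, where 1747 genes had an unadjusted p under 0.05. Leaving out each clone in turn, the calls ran from 91 higher and 83 lower without F to 378 and 368 without H, and 159 genes (80 of them higher) were called every time. Of the 98 genes named by rule, 60 passed the test and 40 of those passed in every leave-one-out fit. Both counts include COL9A2 and GATA4, which reached the filter through the high clones alone. ZBTB46, which had H alone of the low clones above the filter level, is in both counts too. The other 20 included SOX9, PRG4, MGP, HYAL2, CHST12, ADAMTS9, HTRA1, PRELP, COL14A1, THBS2, COL15A1, TGFBR2, GREM1, DKK2, CEBPA, CIDEA, CNN1, TAGLN and SYBU. Of the 20, 19 were lost without F, 19 without E, 15 without P, 14 without M, 11 without I, 10 without N, 9 without O, 9 without Q, 6 without C and 2 without H.

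**Figure D1:**
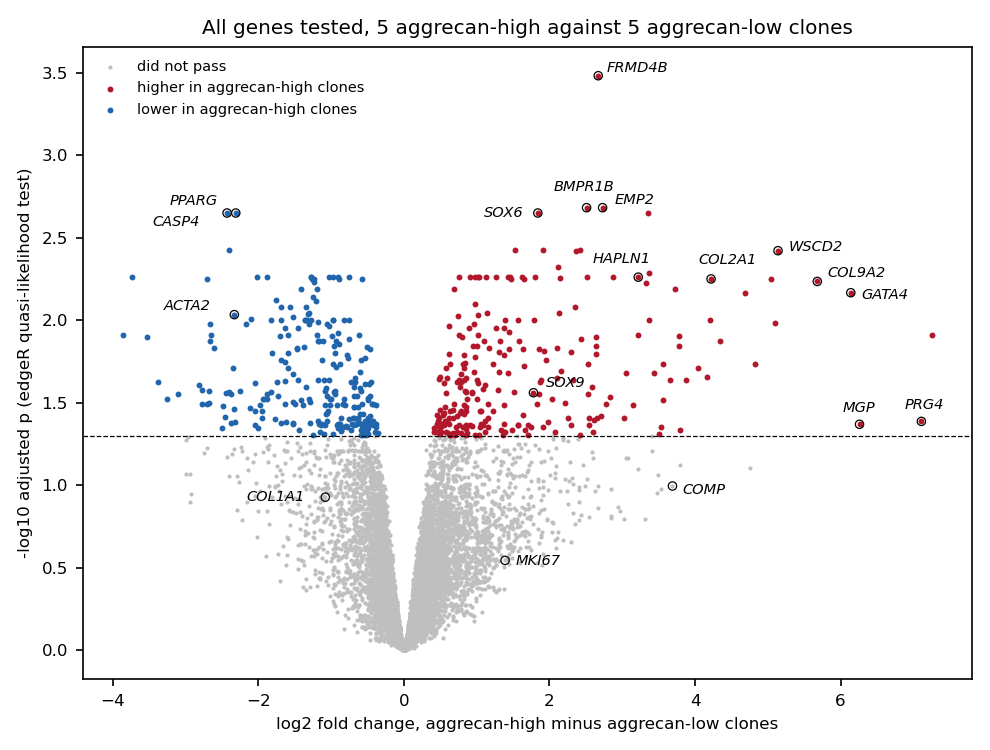
Each point is 1 of the 10927 genes tested, with the log2 fold change of the 5 aggrecan-high against the 5 aggrecan-low clones on the horizontal axis and −log10 of edgeR's adjusted p on the vertical axis; the dashed line marks an adjusted p of 0.05. Of the circled genes, FRMD4B has the smallest adjusted p, PRG4 and MGP have differences over 6 log2 units just past the line, and COMP, COL1A1 and MKI67 lie below it.

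Some cartilage collagens were higher in the aggrecan-high clones, although the calls changed with the number of clones compared. Of the 4 members of that list that passed the filter in both groups, COL2A1 and COL11A2 were called higher and 0 lower. Of all genes, 2.24% were higher and 2.22% lower. The median log2 difference of the 4 members was 1.18 against 0.04 for all genes. With COL9A2 the list had 5 tested members and 3 calls. The calls were 0 with 4 clones against 4, 1 with 6 against 6 and 0 with 8 against 8. COL2A1, the fibrillar collagen of hyaline cartilage, was at 194, 1287, 237, 1117 and 651 CPM in N, O, Q, C and P and at 31.8, 34.1, 20.4, 21.4 and 65.5 CPM in F, M, I, E and H. Every high clone lay above every low clone, with O and C highest and N, the clone with the most ACAN, lowest among the high clones. The log2 fold change was 4.22 ± 0.60 (SE, n = 5 clones a group, 18.7-fold, edgeR adjusted p = 0.00562).

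COL9A2, a chain of the type IX collagen that decorates those fibrils, was at 2.54, 36.9, 5.58, 29.7 and 9.12 CPM in N, O, Q, C and P and had 3, 3, 9, 3 and 5 reads (0.163 to 0.652 CPM) in F, M, I, E and H. It repeated the order of COL2A1 among the high clones. Its fitted fold change and call support nothing because it entered the test through the high clones alone. The gene still stands in the counts of called genes and in the figures. COL11A2, a chain of type XI collagen, was at 17.1 to 45.6 CPM in the high clones and 6.81 to 10.3 CPM in the low clones (log2 1.58 ± 0.28, edgeR adjusted p = 0.0134). COL11A1 and COL27A1 overlapped between the groups (log2 0.41 and 0.77, edgeR adjusted p = 0.426 and 0.179). COL9A1 was below the filter on low counts, with 3, 10, 13, 2 and 23 reads in N, O, Q, C and P and 0, 1, 0, 0 and 0 in F, M, I, E and H. COL10A1, the collagen of hypertrophic cartilage, had at most 1 read in any of the 10 libraries.

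Of the 18 tested chondrogenic regulators 3 were higher and 0 lower, against 2.24% and 2.22% of all genes. With C and O summed as 1, 2 were higher. The median log2 difference was 0.23, and 11 of the 18 differences were above 0, against 54.6% of all genes. The abundant members PRRX1 and BHLHE40 did not pass (log2 −0.53 and −0.28, edgeR adjusted p = 0.166 and 0.374). SOX6, which pairs with SOX9 on cartilage enhancers, was nearly level across the high clones at 24.8, 22.8, 25.8, 22.3 and 22.7 CPM in N, O, Q, C and P, and was at 5.05, 6.83, 3.98, 5.68 and 8.70 CPM in F, M, I, E and H. It was 3.58-fold higher with no overlap (log2 1.84 ± 0.20, edgeR adjusted p = 0.00224). WWP2, a ubiquitin ligase whose gene hosts the cartilage microRNA miR-140, was at 330 to 512 CPM in the high clones and 91.8 to 211 CPM in the low clones (log2 1.46 ± 0.19, edgeR adjusted p = 0.00548). SOX9 was at 24.1, 24.2, 16.2, 19.4 and 18.9 CPM in N, O, Q, C and P and at 2.86, 2.55, 9.92, 2.78 and 10.5 CPM in F, M, I, E and H. SOX9 too did not overlap and was 3.44-fold higher (log2 1.78 ± 0.38), but its edgeR adjusted p of 0.0275 rose to 0.0507 with C and O summed as 1 and to as much as 0.0739 when O, P, F, M or E was left out. The remaining partner, SOX5, was at 17.2 to 49.6 and 8.07 to 26.0 CPM and did not pass (log2 0.87, edgeR adjusted p = 0.155), and neither did RUNX2, a regulator of bone and hypertrophic cartilage (−0.17, adjusted p = 0.760).

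**Figure D2:**
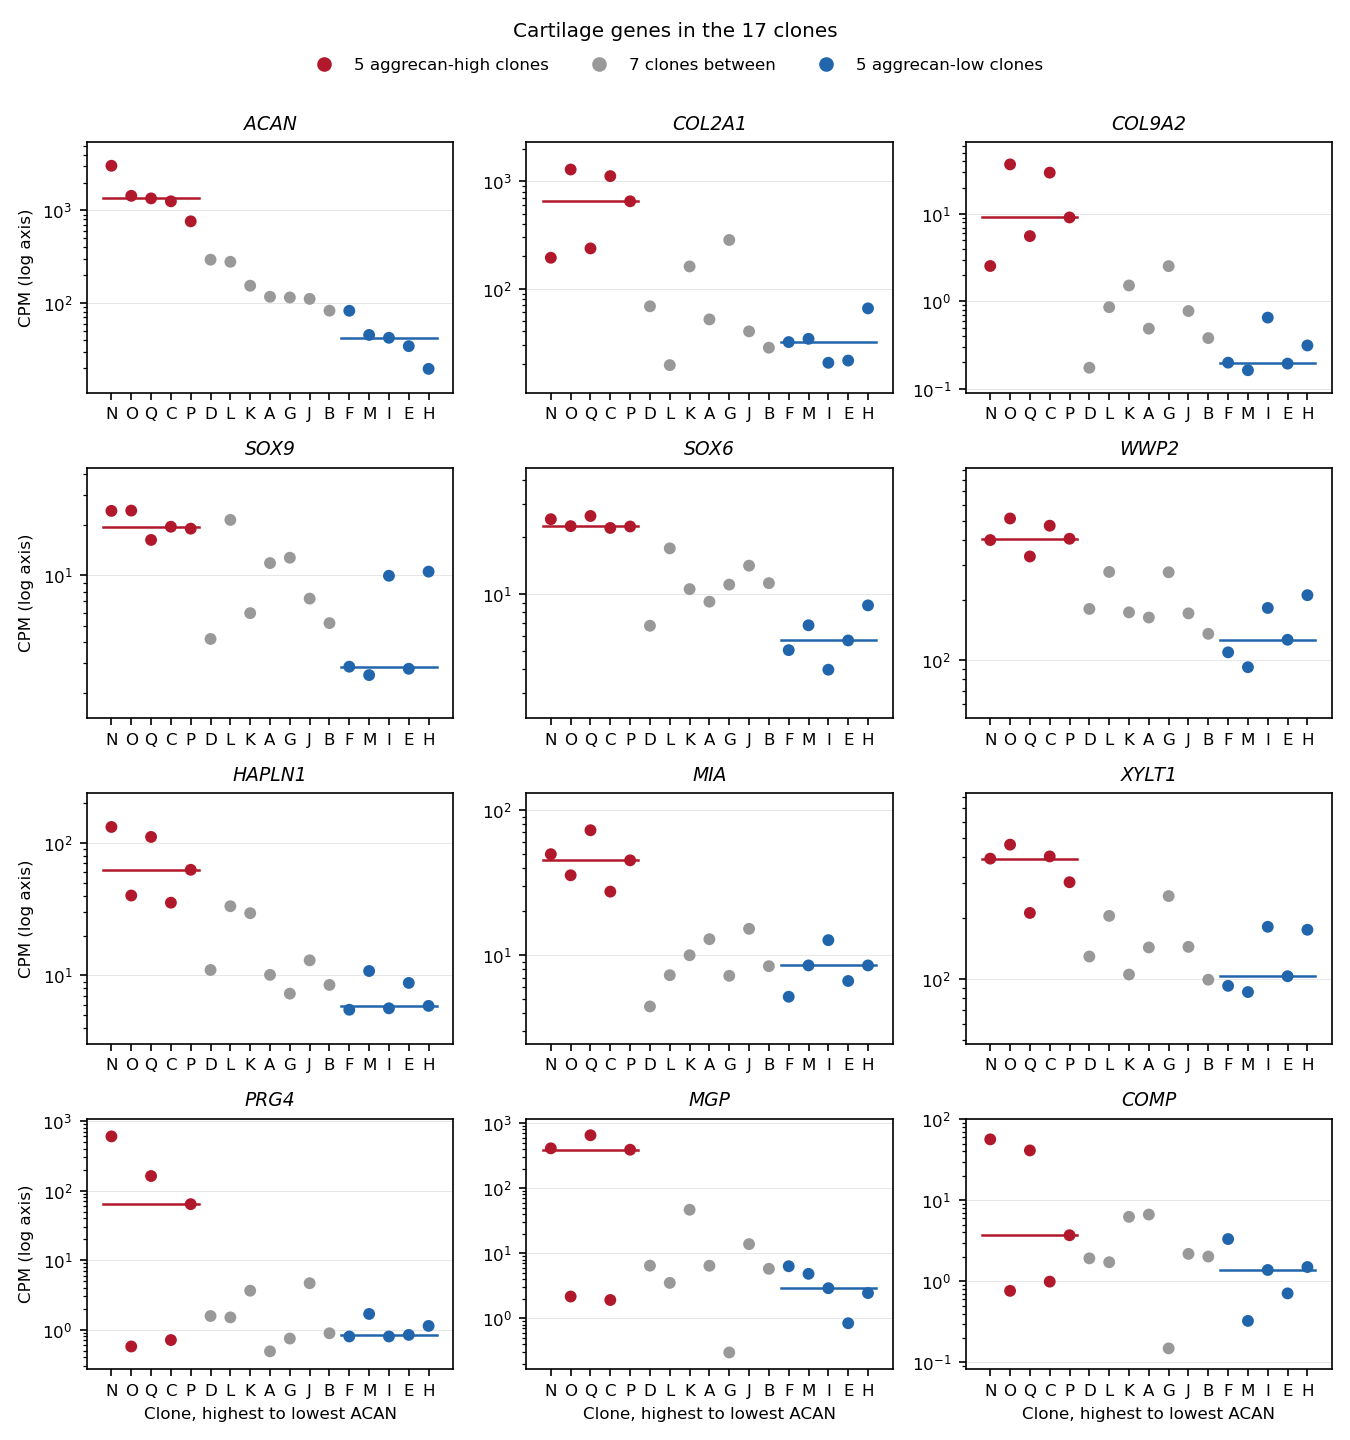
CPM of ACAN and 11 cartilage genes on log axes that differ between panels, with the 17 clones ordered from highest to lowest ACAN; points are single libraries coloured by group and horizontal lines are the medians of the 5 high and 5 low clones. COL2A1, COL9A2, SOX9, SOX6, WWP2, HAPLN1, MIA and XYLT1 separate the groups, whereas PRG4 and MGP lie between 63.8 and 651 CPM in N, Q and P and between 0.572 and 2.16 CPM in O and C.

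Among 11 tested cartilage matrix proteins other than collagens, 4 were higher and 0 lower, against 2.24% and 2.22% of all genes. The median log2 difference was 2.37. HAPLN1, the link protein that fastens aggrecan to hyaluronan, was at 132, 40.1, 111, 35.4 and 62.7 CPM in N, O, Q, C and P and at 5.51, 10.8, 5.65, 8.78 and 5.89 CPM in F, M, I, E and H. The groups were well apart, at 9.32-fold (log2 3.22 ± 0.42, edgeR adjusted p = 0.00548). MIA, a small protein secreted by chondrocytes, was at 27.4 to 72.5 CPM against 5.18 to 12.7 CPM (log2 2.37 ± 0.28, edgeR adjusted p = 0.00379).

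The other members that passed split the high clones. PRG4, the lubricin of the articular surface, was at 602, 162 and 63.8 CPM in N, Q and P but at 0.572 and 0.708 CPM in O and C, within or below the low clones at 0.797 to 1.68 CPM. MGP, the matrix Gla protein that restrains mineralisation, was at 410, 651 and 390 CPM in N, Q and P and at 2.16 and 1.91 CPM in O and C, against 0.839 to 6.31 CPM in the low clones. The groups therefore overlapped in both genes, and their edgeR adjusted p-values of 0.0410 and 0.0427 were lost in 8 of the 10 leave-one-out fits, those without O or C being the exceptions. Without N, P and Q the log2 differences were −0.85 for PRG4 and −0.91 for MGP. COMP, a pentameric protein of the cartilage matrix, was at 56.3 and 41.1 CPM in N and Q, 3.70 in P, 0.763 in O and 0.991 in C and at 0.325 to 3.32 CPM in the low clones, and did not pass (log2 3.69 ± 1.19, edgeR adjusted p = 0.101).

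The genes that build the sugar chains of aggrecan were tested as a list of 25, of which 2 were higher and 0 lower, against 2.24% and 2.22% of all genes. The median log2 difference was 0.27, and 11 members had an unadjusted p under 0.05, against 23.3% of all genes. XYLT1, which starts each glycosaminoglycan chain by adding xylose to the core protein, was at 394, 462, 212, 404 and 301 CPM in N, O, Q, C and P and at 86.0 to 181 CPM in the low clones. It did not overlap and was 2.60-fold higher (log2 1.38 ± 0.23, edgeR adjusted p = 0.0111). CHST12, a chondroitin 4-O-sulfotransferase, was at 27.7 to 43.7 CPM against 16.3 to 19.0 CPM (log2 0.82 ± 0.15, edgeR adjusted p = 0.0163, 0.0565 without F). PAPSS1 and PAPSS2, which make the sulfate donor, had log2 differences of 0.53 and 1.48 and did not pass (edgeR adjusted p = 0.0624 and 0.0738), with PAPSS2 highest in O and C at 312 and 270 CPM.

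Of 12 tested genes of hyaluronan metabolism and hyaluronan-binding proteoglycans, HYAL2, a hyaluronidase, was the 1 called, at 17.0 to 26.1 against 10.3 to 13.7 CPM (log2 0.77 ± 0.16, edgeR adjusted p = 0.0254, 0.0567 with C and O summed as 1). Among 14 aggrecanases, matrix proteases and inhibitors, 0 were higher and 2 were lower, or 1 with C and O summed as 1. Both lists are read against 4.47% of all genes called in either direction. ADAMTS9, a secreted metalloprotease able to cleave aggrecan, was at 4.65, 14.5, 3.79, 16.6 and 14.2 CPM in N, O, Q, C and P and at 42.7, 40.0, 35.2, 37.0 and 25.3 CPM in F, M, I, E and H, with no overlap (log2 −1.88 ± 0.41, edgeR adjusted p = 0.0299). HTRA1, a serine protease of the matrix, was at 805 to 996 against 1153 to 2228 CPM (log2 −0.91, edgeR adjusted p = 0.0427), a call lost in 8 leave-one-out fits and with C and O summed as 1 (0.0760). The classical aggrecanases ADAMTS4 and ADAMTS5 overlapped, with log2 differences of 0.17 ± 0.48 and −0.09 ± 0.50 and edgeR adjusted p-values of 0.864 and 0.935.

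Many contractile genes were lower in the aggrecan-high clones. Of 13 tested members, 7 were lower and 0 higher, against 2.22% and 2.24% of all genes. The 6 that did not pass included CALD1 and SMTN (log2 −0.77 and −0.27, edgeR adjusted p = 0.0991 and 0.682). The median log2 difference was −1.18, and 1 of the 13 differences was above 0. ACTA2, the smooth muscle actin of stress fibres, was at 578, 1151, 468, 1435 and 720 CPM in N, O, Q, C and P and at 5385, 2132, 4199, 5001 and 3140 CPM in F, M, I, E and H. Every high clone lay below every low clone, at 5.01-fold lower (log2 −2.33 ± 0.37, edgeR adjusted p = 0.00925).

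MYL9, a regulatory myosin light chain, was at 337, 322, 445, 389 and 462 CPM in N, O, Q, C and P and at 1065, 560, 1033, 1035 and 788 CPM in F, M, I, E and H (log2 −1.32 ± 0.21, edgeR adjusted p = 0.00911). The tropomyosins TPM1 and TPM2, which line actin filaments, were 2.27-fold and 2.51-fold lower (edgeR adjusted p = 0.0133 and 0.00995) with no overlap. CNN1 and TAGLN, actin-binding proteins of smooth muscle, were 2.74-fold and 2.14-fold lower (edgeR adjusted p = 0.0229 for both), and each overlapped only through clone M, at 122 and 1875 CPM. ACTG2, an actin close in sequence to ACTA2 from which 50-base reads may not be fully separated, was at 62.7 to 213 against 255 to 569 CPM (log2 −1.88, edgeR adjusted p = 0.0281, 0.0544 with C and O summed as 1). Leaving out a clone gave 4 to 7 called members of the list, and summing C and O as 1 gave 6. With 4 against 4, 6 against 6 and 8 against 8 clones the called members were 0, 3 and 0.

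**Figure D3:**
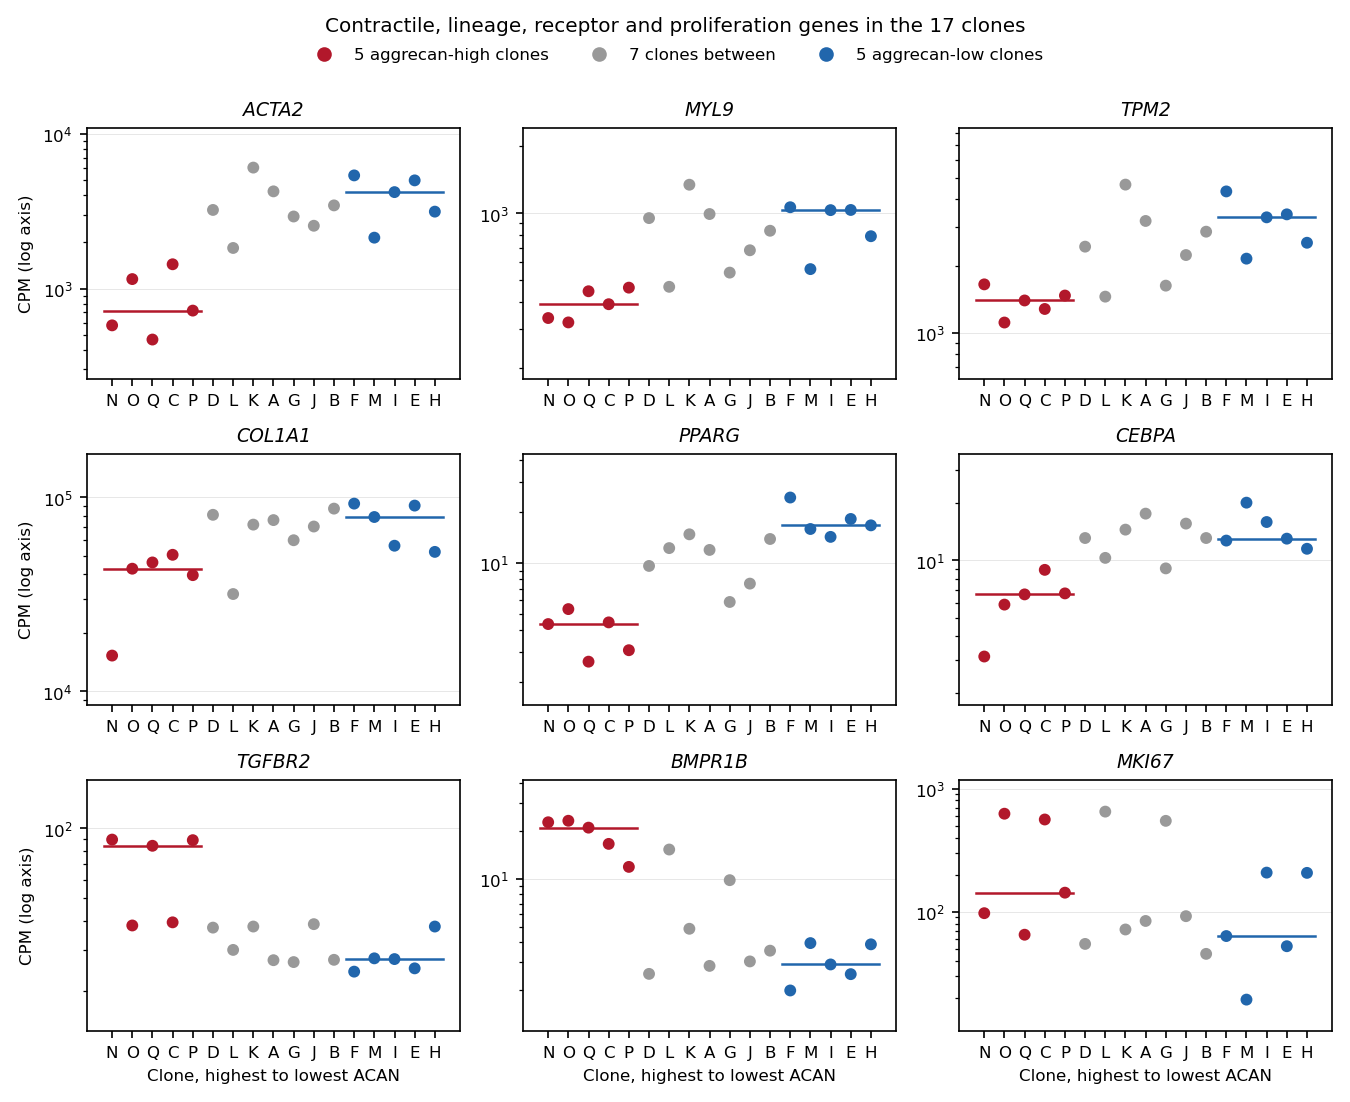
CPM of 9 genes outside the cartilage lists on log axes that differ between panels, with the 17 clones ordered from highest to lowest ACAN and horizontal lines at the medians of the 5 high and 5 low clones. ACTA2, MYL9, TPM2, PPARG and CEBPA are lower and BMPR1B and TGFBR2 higher in the high clones; MKI67 is between 547 and 650 CPM in O, C, L and G, of which O and C are high clones and L and G lie between the groups.

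Fibroblast matrix genes had no common direction. Of 24 tested members 3 were higher (2 with C and O summed as 1) and 0 lower, against 2.24% and 2.22% of all genes. The median log2 difference was 0.01. COL14A1, a fibril-associated collagen of tendon and skin, was at 1104, 296, 950, 289 and 889 CPM in N, O, Q, C and P against 87.9 to 222 CPM in the low clones (log2 2.16 ± 0.42, edgeR adjusted p = 0.0203). THBS2, a matricellular thrombospondin, was at 1482, 462, 2255, 481 and 2424 CPM against 54.0 to 411 CPM (log2 2.77 ± 0.61, edgeR adjusted p = 0.0322). Both genes thus had their higher values in N, Q and P and their lower ones in O and C, the same split as PRG4. COL15A1, a basement membrane collagen, was at 846 to 1033 against 318 to 778 CPM (log2 0.85, edgeR adjusted p = 0.0355, 0.0671 with C and O summed as 1).

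COL1A1, a chain of the type I collagen of bone and fibrous tissue, was at 15245, 42784, 46082, 50464 and 39627 CPM in N, O, Q, C and P and at 92686, 79047, 56208, 90534 and 52241 CPM in F, M, I, E and H. The groups did not overlap, with N far below the rest, but the gene did not pass (log2 −1.08 ± 0.37, edgeR adjusted p = 0.118). Among 13 small leucine-rich proteoglycans, PRELP passed as higher (361 to 629 against 157 to 326 CPM, edgeR adjusted p = 0.0354, 0.0567 with C and O summed as 1), while FMOD and BGN overlapped between the groups. Of 5 tendon and ligament genes, COL14A1 was the 1 called.

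Of 45 tested members of the TGFβ and BMP pathways 3 were higher and 1 lower (2 and 1 with C and O summed as 1), against 4.47% of all genes called in either direction. The median log2 difference was 0.16. BMPR1B, a type I BMP receptor of cartilage condensations, was at 22.7, 23.2, 21.0, 16.6 and 11.9 CPM in N, O, Q, C and P and at 1.99, 3.95, 2.90, 2.52 and 3.88 CPM in F, M, I, E and H. It was 5.70-fold higher with no overlap (log2 2.51 ± 0.24, edgeR adjusted p = 0.00208).

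TGFBR2, the type II receptor that binds TGFβ, was at 89.3, 84.0 and 88.8 CPM in N, Q and P, at 38.2 and 39.4 CPM in O and C, and at 24.2 to 37.8 CPM in the low clones (log2 1.15 ± 0.27, edgeR adjusted p = 0.0391). GREM1, a secreted BMP antagonist, was at 1086 to 2076 against 390 to 970 CPM (log2 0.94 ± 0.23, edgeR adjusted p = 0.0438, 0.0758 with C and O summed as 1). ACVR2A, a type II receptor for activins and BMPs, was lower at 12.0 to 15.8 against 20.6 to 37.3 CPM (log2 −1.17 ± 0.21, edgeR adjusted p = 0.0134). ID1, a target of BMP signalling, and TGFB3 did not pass, with log2 differences of 1.88 and 1.06 and edgeR adjusted p-values of 0.122 and 0.0604.

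Of 36 tested Wnt, FGF, hedgehog and IGF genes 1 was higher and 3 lower, read against the same 4.47%, with a median log2 difference of −0.04. DKK2, a secreted Wnt modulator, was at 18.4 to 64.9 against 1.79 to 14.0 CPM (log2 2.53 ± 0.54, edgeR adjusted p = 0.0279). FGFR2 was at 21.7 to 36.9 against 53.7 to 82.1 CPM (log2 −1.25 ± 0.19, edgeR adjusted p = 0.00720). The IGF-binding proteins IGFBP2 and IGFBP3 were 2.31-fold and 3.57-fold lower (edgeR adjusted p = 0.00769 and 0.00995), and IGFBP7, named below from outside the list, moved the same way. IGFBP4 and IGFBP6 did not pass (log2 −0.98 and 0.01, edgeR adjusted p = 0.0688 and 0.987). FGFR3, the FGF receptor of growth plate chondrocytes, was at 3.35 to 12.8 against 0.258 to 3.04 CPM and fell just short (log2 2.18 ± 0.55, edgeR adjusted p = 0.0517).

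Markers of the other marrow lineages did not form a single pattern. Of 9 tested adipocyte genes 3 were lower (2 with C and O summed as 1) and 1 higher, against 2.22% and 2.24% of all genes. PPARG, the master regulator of fat cells, was at 4.36, 5.34, 2.62, 4.46 and 3.06 CPM in N, O, Q, C and P and at 24.2, 15.8, 14.2, 18.1 and 16.6 CPM in F, M, I, E and H. All high clones lay below all low clones, at 4.96-fold lower (log2 −2.31 ± 0.24, edgeR adjusted p = 0.00224). CEBPA, its partner in adipogenesis, was 2.56-fold lower (edgeR adjusted p = 0.0253) and CIDEA, a lipid droplet protein, 3.57-fold lower with overlap (edgeR adjusted p = 0.0271, 0.0567 with C and O summed as 1).

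G0S2, an inhibitor of triglyceride breakdown, was higher at 3.70 to 12.1 against 0.145 to 1.23 CPM (log2 3.37 ± 0.54, edgeR adjusted p = 0.00992). FABP4 and ADIPOQ, products of mature fat cells, had differences above 0 that did not pass, and the groups overlapped in both. FABP4 was at 85.5, 2.86, 15.1, 3.89 and 12.2 CPM in N, O, Q, C and P against 0.71 to 14.8 CPM in the low clones (log2 2.09 ± 1.01, edgeR adjusted p = 0.241). ADIPOQ was at 28.0, 7.06, 5.93, 6.86 and 3.0 CPM against 0.516 to 5.45 CPM (log2 2.15 ± 0.71, edgeR adjusted p = 0.108). LPL, the lipoprotein lipase of fat cells, was at 2.19 to 15.0 and 1.67 to 10.5 CPM and did not pass (log2 0.52 ± 0.67, edgeR adjusted p = 0.675). Of 9 tested osteoblast genes 0 were higher and 1 was lower, against 2.24% and 2.22% of all genes, with a median log2 difference of −0.84. SPP1, which encodes osteopontin, was at 635 to 1513 and 733 to 1001 CPM, a log2 difference of 0.00 ± 0.20. Of 12 stromal surface markers, CD248 (endosialin) was the 1 called, against 4.47% of all genes called in either direction. It was lower at 44.2 to 94.4 against 139 to 396 CPM (log2 −1.70, edgeR adjusted p = 0.0124).

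Proliferation genes varied between clones within the groups. All 20 tested cell cycle genes had log2 differences above 0, with a median of 1.26, but 0 passed in edgeR, 8 had an unadjusted p under 0.05 (23.3% of all genes did) and DESeq2 called 1. MKI67, a marker of cycling cells, was at 97.5, 625, 65.2, 561 and 143 CPM in N, O, Q, C and P and at 63.6, 19.4, 208, 52.6 and 207 CPM in F, M, I, E and H (log2 1.39 ± 0.74, edgeR adjusted p = 0.285). O and C carried the difference: without them the median log2 difference of the list was 0.00, and without N, P and Q it was 2.20. The latter fit called 14 members, but its high group was O and C alone. These 2 nearly alike libraries were counted as replicates there, so the calls are no support. MKI67 moved with the COL2A1 level of O and C in the high group, and its part in the results was not tested.

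**Figure D4:**
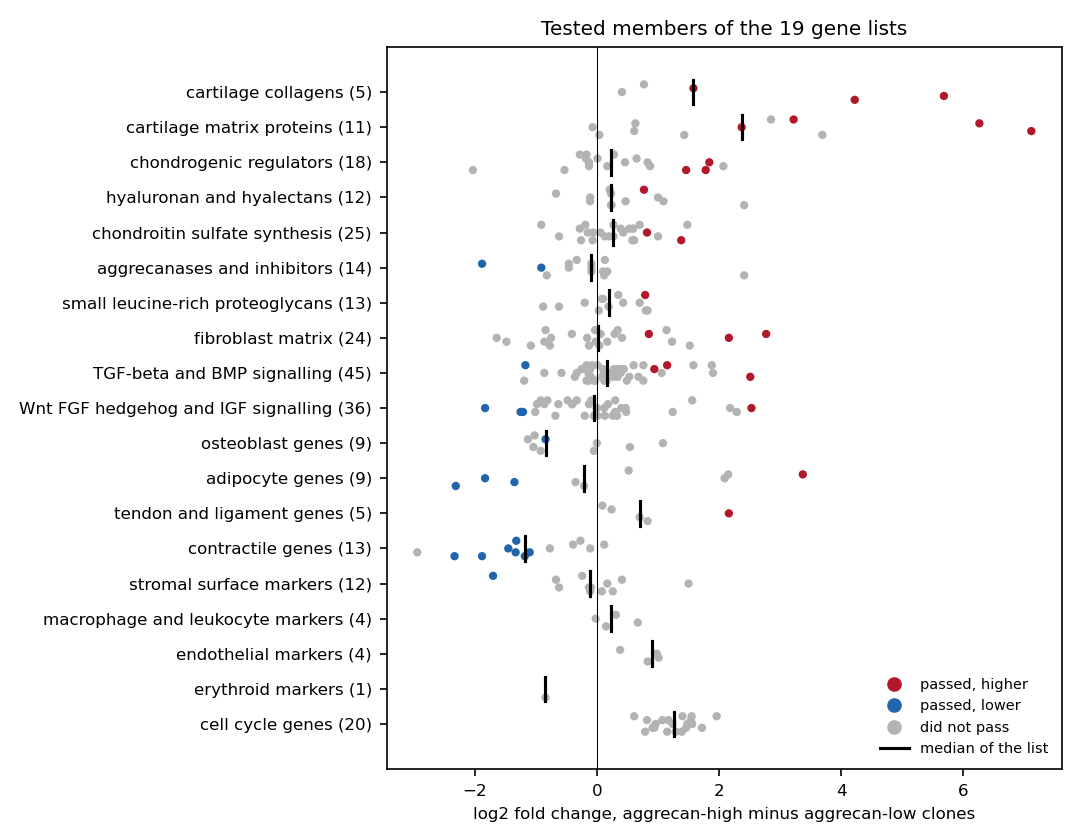
Each point is a tested member of 1 of the 19 gene lists, with the number tested in parentheses and its log2 fold change between the 5 aggrecan-high and 5 aggrecan-low clones on the horizontal axis; black bars are list medians and colours mark members past an adjusted p of 0.05. Cartilage collagens, cartilage matrix proteins and contractile genes have medians over 1 log2 unit from 0 together with called members, while the cell cycle list has a median of 1.26 and 0 called.

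Outside the lists, the genes with the smallest p were of varied function. FRMD4B, a FERM-domain scaffold protein, was at 52.8, 36.4, 44.2, 30.4 and 40.5 CPM in N, O, Q, C and P and at 3.85, 6.50, 5.87, 5.23 and 8.01 CPM in F, M, I, E and H. The clones of each group were close together, and the 6.38-fold difference had the smallest p of all genes (log2 2.67 ± 0.19, edgeR adjusted p = 3.30e-04). S100B, a calcium-binding protein of chondrocytes and glia, was at 214, 85.3, 151, 75.3 and 139 CPM against 17.5 to 25.5 CPM in the low clones (log2 2.42 ± 0.28, edgeR adjusted p = 0.00375). WSCD2, a membrane protein with a WSC domain, was at 95.2, 22.1, 18.9, 18.4 and 48.2 CPM against 0.501 to 2.13 CPM (log2 5.14 ± 0.62, edgeR adjusted p = 0.00379).

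EMP2, a tetraspan membrane protein, was at 6.27 to 8.79 against 0.542 to 1.69 CPM, and ZBTB46, a zinc finger transcription factor, at 4.07 to 7.31 against 0.199 to 0.939 CPM (edgeR adjusted p = 0.00208 and 0.00224). Of the low clones, H alone had ZBTB46 above the 0.655 CPM of the filter. ZBTB46 thus reached the filter almost wholly through the high clones, and its call is no support. ARL9, an Arf-like GTPase, and LDLRAD3, an LDL receptor class A domain protein, were 3.77-fold and 2.87-fold higher (edgeR adjusted p = 0.00375 for both). With BMPR1B, SOX6 and MIA, these were the 10 genes with a symbol, separate groups and the smallest p among those higher, and all 10 passed in every leave-one-out fit. That outcome leans on the choice, which used the same clones, and is no separate support. With 8 clones against 8, 0 genes passed in edgeR.

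The 10 such genes among those lower included PPARG, CASP4, IGFBP7, SOGA3, KIAA0408, FBLIM1, TBX18, MFSD12 and SYTL2. All 10 passed in every leave-one-out fit as well, with the same limit from the choice. CASP4, an inflammatory caspase, was at 5.52, 9.98, 8.96, 9.98 and 4.85 CPM in N, O, Q, C and P and at 49.0, 29.5, 35.4, 44.2 and 34.3 CPM in F, M, I, E and H (log2 −2.43 ± 0.26, edgeR adjusted p = 0.00224). IGFBP7, a secreted IGF-binding protein, was at 42.3 to 129 against 339 to 611 CPM (log2 −2.40 ± 0.28, edgeR adjusted p = 0.00375). FBLIM1, which links the actin cytoskeleton to focal adhesions, TBX18, a T-box transcription factor of mesenchyme, and SYTL2, a Rab27 effector, were 1.86-fold, 2.41-fold and 2.40-fold lower (edgeR adjusted p = 0.00548 for each).

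**Figure D5:**
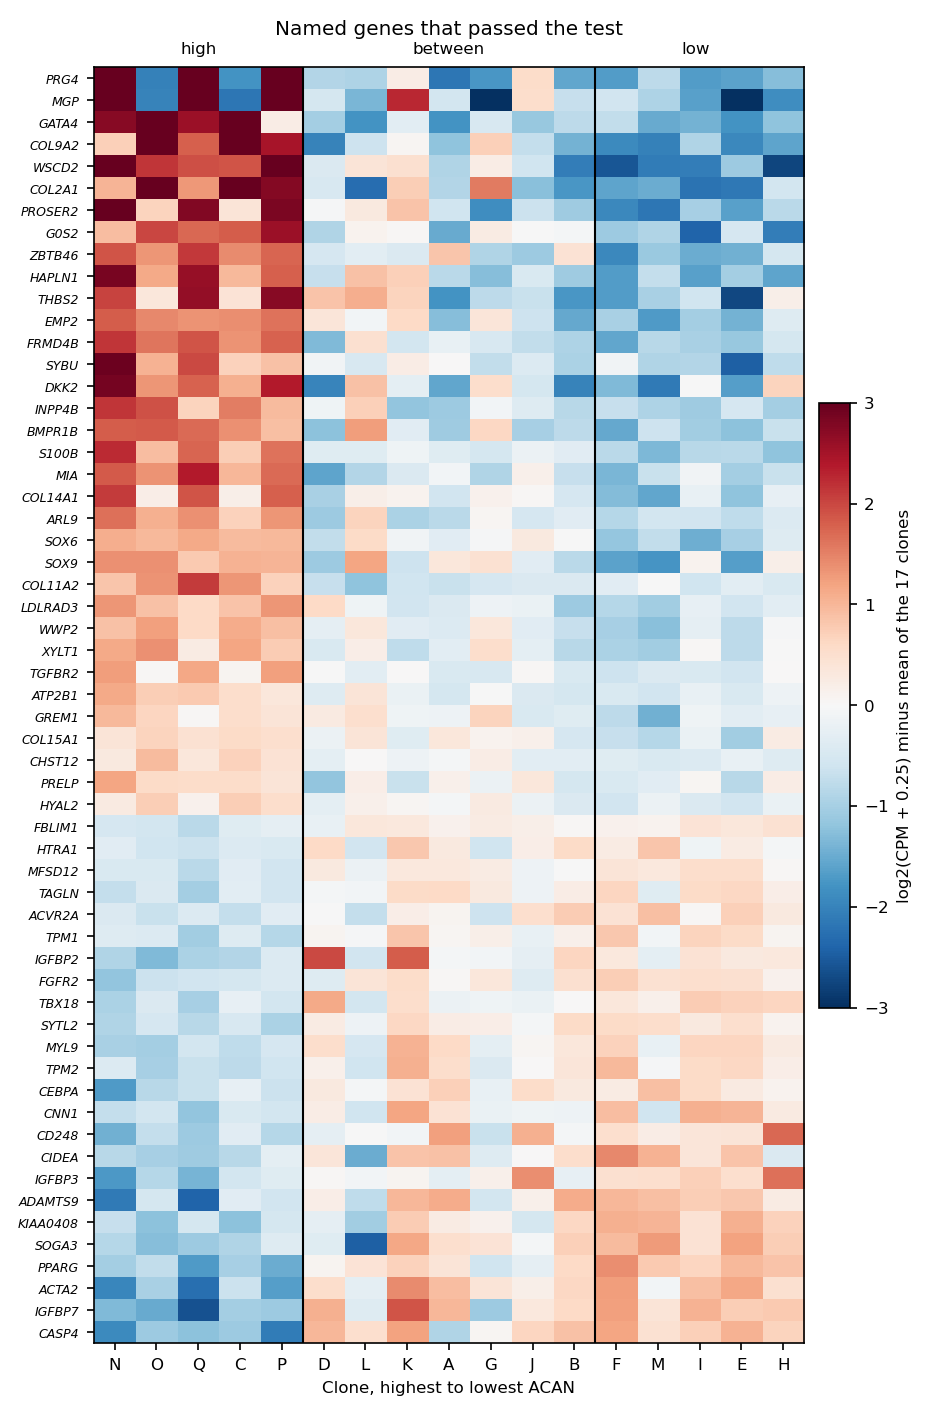
Rows are 58 named genes that passed the test, sorted by log2 fold change, columns are the 17 clones from highest to lowest ACAN with lines between the 3 sets, and colour is log2(CPM + 0.25) minus the mean of the row, cut at ±3. The rows were chosen for passing the test, so the contrast of the 5 high and 5 low clones follows from that choice. The 7 between reach into the high range in some rows, as L does for SOX9 (21.3 CPM) and G for COL2A1 (284 CPM). PRG4, MGP, THBS2, COL14A1 and TGFBR2 split N, Q and P from O and C.

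The 7 clones between the groups took no part in the comparison and are described beside it at moderate ACAN levels. Within them ACAN ranged from 82.8 to 294 CPM, with A, G, J and B at 82.8 to 117 CPM. Genes are not replicates, so the shares below carry no test. The genes called higher include those that reached the filter through the high clones alone. Of the 245 genes called higher, 160 (65.3%) had a positive slope on log2 ACAN over these 7 clones, against 51.6% of all genes, and of the 243 called lower, 179 (73.7%) had a negative slope, against 48.4%. The slopes were small, with medians of 0.10 and −0.15 log2 units per doubling of ACAN against 0.01 for all genes, and 0 genes passed in edgeR over these 7 clones, where 281 had an unadjusted p under 0.05. BMPR1B, HAPLN1 and EMP2 had slopes of 0.51, 0.67 and 0.65, whereas COL2A1 and MIA had slopes of −0.58 and −0.69. Clone L, with 279 CPM of ACAN, had SOX9 at 21.3 CPM, within the high group, and COL2A1 at 19.4 CPM, below every low clone. Clone G, whose library was close to those of C and O (r 0.981 and 0.979), had 284 CPM of COL2A1 and 547 CPM of MKI67 but 115 CPM of ACAN.

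A slope on log2 ACAN was also fitted over all 17 clones, which include the 10 selected clones, so it is no independent support. Of 11226 tested genes, 404 rose (3.60%) and 274 fell (2.44%), or 389 and 215 with C and O summed as 1, at an adjusted p under 0.05 in edgeR's quasi-likelihood test of the slope. Per doubling of ACAN, S100B rose by 0.45 ± 0.04 log2 units and WSCD2 by 0.94 ± 0.09 (SE, n = 17, edgeR adjusted p = 4.85e-05 for both). COL2A1 rose by 0.73 ± 0.14 (edgeR adjusted p = 0.00637), SOX9 by 0.29 ± 0.07 (0.0261) and COMP by 0.69 ± 0.16 (0.0137). ACTA2 had a slope of −0.46 ± 0.09 (edgeR adjusted p = 0.00769) and PPARG of −0.40 ± 0.07 (0.00317). A slope over 17 clones need not hold along the whole range. Within the 7 clones between the groups, COL2A1, COMP and S100B had the other sign (−0.58, −0.38 and −0.11). WSCD2, SOX9, ACTA2 and PPARG kept theirs (0.57, 0.26, −0.30 and −0.09). COMP was also low in O and C, at 0.763 and 0.991 CPM. IGFBP2, HTRA1, PRELP, COL15A1 and ACTG2, called between the groups, did not pass over the 17 clones (edgeR adjusted p = 0.297, 0.0923, 0.0706, 0.0582 and 0.0979).

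The genes with the smallest p for the slope that no other rule named were INPP4B, GATA4, SYBU, ATP2B1 and PROSER2. INPP4B, a phosphoinositide phosphatase, was at 2.76 to 8.13 CPM in the high clones and 0.652 to 1.10 CPM in the low clones, with a slope of 0.50 ± 0.06 (edgeR adjusted p = 1.52e-04). GATA4, a zinc finger transcription factor of heart and endoderm, was at 5.45, 16.8, 4.89, 14.6 and 0.751 CPM in N, O, Q, C and P. It had 0 to 4 reads in each low clone. Like COL9A2, it reached the filter of the group comparison (0.655 CPM) through the high clones alone. The clones between the groups lay below that level too. Its fitted fold change, call and slope therefore support nothing. ATP2B1, a plasma membrane calcium pump, was at 110 to 190 against 58.5 to 78.5 CPM, with a slope of 0.19 ± 0.02 (edgeR adjusted p = 2.99e-04). PROSER2 was at 78.3, 34.4 and 35.3 CPM in N, Q and P and at 7.76 and 6.30 CPM in O and C, against 0.867 to 2.63 CPM in the low clones.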

How the data were processed

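The authors sequenced poly(A) RNA of 17 clones and 1 heterogeneous population (single-end reads of 50 bases, NEBNext Ultra), aligned it with STAR 2.3.0e to bosTau7 and counted reads per RefSeq gene with HTSeq; the strand setting is not given in the sources used here. The deposited values are raw counts for 16989 gene symbols. Lines that name no gene (18.8% to 26.8% of each file outside genes) stayed out of library sizes.

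Members and lists were chosen with earlier results of these data known. ACAN CPM used the sum of gene counts. Counts were tested with edgeR 4.0.16 (TMM, filterByExpr, quasi-likelihood, Benjamini-Hochberg over all genes but ACAN), for 5 against 5 clones and for the slope on log2(ACAN CPM + 0.25) over 17. Alternatives used DESeq2 1.42.0, limma 3.58.1, other scalings, filters, group sizes and omitted clones. The steps were checked on simulated counts. Genes were named by rule: ACAN, COL2A1, SOX9 and COMP, the 10 higher and 10 lower with the smallest p and separate groups, up to 6 called and 2 abundant uncalled members of each of 19 lists, and 5 more by slope. Other list members (ACTG2, COL9A1, COL10A1, SOX5, RUNX2, PAPSS1, PAPSS2, ADAMTS4, ADAMTS5, ID1, TGFB3, FGFR3, ADIPOQ and LPL) were picked after their values were seen. Poisson intervals cover counting error only. Series-wide table columns repeat these counts and were not used. Results for a few genes are not reported here.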

Additional observations from a re-analysis of the deposited data

Results flagged for a closer look

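In each group of 5 clones, a clone far from the other 4 was looked for in the 98 named genes, 196 groups in all. Dixon's test was used on log2 values at its 95% critical value of 0.71, and the values below are in CPM. Chance marks about 1 in 20 groups, and 7 of the 196 were marked, which is below that share. In the high group, clone N stood apart with PRELP at 629 CPM, above the other clones, and COL1A1 at 15200 CPM, below them. In the low group, clone H stood apart as the highest with TGFBR2 at 37.8, IGFBP3 at 254 and CD248 at 396 CPM. Clone I had the lowest FMOD of the low group at 1840 CPM, and clone M the lowest IGFBP2 at 287 CPM.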

How the results depend on the processing

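The comparison of the groups kept its counts within 1.5 times with DESeq2 size factors in edgeR, library totals, no filter, a minimum of 1 CPM in 5 libraries, limma-voom and clone B in place of clone F. DESeq2's Wald test called 638 higher and 640 lower, a fit of all 17 clones 391 higher, 4 against 4 clones 34 and 18, 6 against 6 95 and 76, and 8 against 8 0 and 0 (edgeR, 1747 genes at an unadjusted p under 0.05; no other tool was run on these groups). Chosen after the data were seen, summing C and O as 1 gave 130 lower, leaving out C and O 593 and 416, and leaving out N, P and Q 1316 and 816. That last fit had C and O alone in the high group, so its counts treat 2 nearly alike libraries as replicates. Without each clone in turn, the calls ranged from 91 to 378 higher and 83 to 368 lower: 91 and 83 without F, 108 and 97 without E, 127 and 120 without P, 146 and 155 without I, 132 higher without M, 115, 159 and 157 lower without O, Q and C, and 378 and 368 without H. For the slope over 17 clones, library totals gave 168 lower, DESeq2 594 lower, and leaving out N and M 153 and 101. Without each clone it gave 202 to 720 higher and 132 to 600 lower: 202 and 132 without N, 720 and 600 without H, 260 and 172 without E, and 160 lower without Q. Without N, P and Q, PRG4 (−0.849), MGP (−0.909) and BGN (−0.78) changed sign, and with 8 against 8 IGFBP2 did (0.193). The cause of these shifts was not tested. With ACAN scaled by TMM, 9 of the 10 clones were chosen again. No paired analysis was possible because the clones share no replicate numbers.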

Other observations

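The heterogeneous population, 1 library outside the comparison, had cartilage and contractile values that can be set beside the clones without a test. It had 16.4 CPM of COL2A1, below all 10 clones compared, 2.98 of SOX9, 7.02 of SOX6 and 4.29 of HAPLN1, the last below every one of those clones too. ACTA2 was at 1896 CPM, between the high and low groups, and COL1A1 at 107492 CPM, above every clone. MKI67 was at 17.6 CPM, below every clone. Its macrophage and leukocyte markers summed to 162 CPM, with CD68 at 38.5 CPM against 0.921 to 2.90 CPM in the 10 clones.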
